A study of Mus musculus with 9 samples.

Results

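Matrix proteoglycans were examined in mouse intrahepatic cholangiocarcinoma cells with and without an intact Vcam1 gene. The 10 genes, biglycan (Bgn), decorin (Dcn), asporin (Aspn), fibromodulin (Fmod), lumican (Lum), prolargin (Prelp), osteomodulin (Omd), osteoglycin (Ogn), versican (Vcan) and perlecan (Hspg2), were chosen by name, with no measured value in the rule, from the 55276 gene symbols of the count table. All 10 were in the table, and 9 passed the filter on low counts and were tested. Lum did not pass and is described from its counts.

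Proteoglycans are matrix proteins that carry sulphated sugar chains. The small leucine-rich proteoglycans bind collagen and set the thickness and spacing of its fibrils, and they are grouped by sequence into class I (Bgn, Dcn, Aspn), class II (Fmod, Lum, Prelp, Omd) and class III (Ogn). Versican is a large chondroitin sulphate proteoglycan that binds hyaluronan in loose, provisional matrix, and perlecan is a heparan sulphate proteoglycan of basement membranes. In liver and in the stroma of cholangiocarcinoma, decorin, biglycan, lumican and versican are known mostly as products of stellate cells and fibroblasts.

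All cells were PPTR cells, a line derived from liver cancer organoids of mice that carried Prom1CreERT2 and Rosa-ZsGreen among their alleles and grown in 2D culture, so that control and mutant cells share the Prom1-driven Cre, the ZsGreen reporter and the rest of the line's genotype. The control, labelled WT and called Vcam1ctrl in the study, was compared with Vcam1KO1 and Vcam1KO2, each of which is 1 single-cell clone, cut by CRISPR/Cas9 in the second exon of Vcam1. Each group had 3 libraries of stranded messenger RNA, taken at different passages, and the labels do not link a library to its passage, so a part of passage in the spread was not tested. The p values measure the spread between libraries, pooled over the groups of a fit. A clone is a single event, so they cannot tell the loss of Vcam1 apart from other differences that a clone carries.

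The libraries held 53415907 to 125223073 counts. Vcam1 was at 248, 221 and 329 CPM (counts relative to library size, scaled with TMM factors) in the control libraries, at 98.8, 92.4 and 128 CPM in Vcam1KO1 and at 119, 99.4 and 83.0 CPM in Vcam1KO2, and it did not differ between the clones beyond the spread of the libraries (log2 difference 0.09, 95% interval -0.35 to 0.53, adjusted p = 0.75). The transcript thus remained in both clones, below its level in control. The log2 fold changes were -1.32 in Vcam1KO1 and -1.41 in Vcam1KO2 (adjusted p 3.5e-04 and 2.9e-04, edgeR's quasi-likelihood test). The study reported that Vcam1 expression was lost in both clones by quantitative RT-PCR and flow cytometry. These measures are unlike the counts here, which are summed over the whole gene. The study's forward primer overlaps the target of the guide, and flow cytometry reads protein. Markers of biliary epithelium, of stellate cells and fibroblasts and of hepatocytes differed between control and the clones. Of 10 biliary epithelial markers, all 10 had a mean over 1 CPM in control cells but only 4 in Vcam1KO1 and 3 in Vcam1KO2, and Krt7, Krt8, Krt18, Krt19, Epcam, Cdh1 and Onecut1 fell to near 0 in both clones. The summed level of 12 stellate cell and fibroblast markers was 279 to 397 CPM in control, 8518 to 10249 CPM in Vcam1KO1 and 4668 to 5558 CPM in Vcam1KO2. Most of it in the clones was Col1a1, which also belongs to a collagen list below, and without it the other 11 summed to 221 to 261, 738 to 1044 and 469 to 560 CPM. Of 8 tested, 5 rose and Nt5e fell in Vcam1KO1 (log2 fold change -5.28), and the same 5 (Pdgfra, Pdgfrb, Lhx2, Acta2 and Col1a1) rose in Vcam1KO2, where Nt5e (-1.99) and Gli1 (-2.40) fell. Of the 12, 7 exceeded 1 CPM in every group, and the stellate cell genes Lrat and Hand2 were at 0 counts in control and Vcam1KO2. Sums over 8 haematopoietic markers were 7.01 to 20.8 CPM and over 8 endothelial markers 0.87 to 4.55 CPM across all libraries. Sums over 8 hepatocyte markers were 45.4 to 184 CPM in control and at most 3.05 CPM in the clones. The part of these marker changes in the results below was not tested. In such bulk libraries more cells that express a gene and more transcript per cell cannot be told apart. Replicate 3 of Vcam1KO1 stood apart from replicates 1 and 2 (chi-square per degree of freedom 273 and 313, against 40.8 between replicates 1 and 2), as did replicate 3 of Vcam1KO2 (187 and 127 against 40.1). Between pairs of control libraries the value was 132, 95.1 and 189, so these differed from each other too. Fold changes or bounds of Dcn, Aspn and Lum in Vcam1KO1 are given with and without its replicate 3. Calls of the tested proteoglycan genes that changed when a single library was left out are stated with their results. Other values, among them Dcn, Omd and Ogn in Vcam1KO2 and Agrn in Vcam1KO1, are not given without replicate 3 of that clone.

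Most of the 10 genes were higher in Vcam1KO1 cells, fewer were in Vcam1KO2 cells, and the members did not move as a block. Against control, 7 of the 9 tested genes rose in Vcam1KO1 (Bgn, Aspn, Fmod, Omd, Ogn, Vcan and Hspg2), Dcn fell and Prelp did not pass the test, by edgeR's quasi-likelihood test with a Benjamini-Hochberg adjusted p under 0.05. In that comparison 59.9% of all 17672 genes tested were called, 29.9% higher and 30.0% lower. The libraries of control and Vcam1KO1 did not overlap for 8 of the 9 genes, all but Prelp, where this held for 66.0% of all genes tested. In Vcam1KO2, Bgn, Omd, Ogn and Vcan rose, Prelp fell, and Dcn, Aspn, Fmod and Hspg2 did not pass, against a background of 51.4% called, 25.3% higher and 26.1% lower. Here the libraries did not overlap for 7 of the 9 genes, all but Dcn and Hspg2, against 62.1% of all genes tested. Of these 7, Aspn held only 1, 1 and 2 counts in Vcam1KO2 and 0 counts in each control library. The 4 genes that rose in both clones were thus Bgn, Omd, Ogn and Vcan, where 18.3% of all tested genes rose in both. The clones were compared with the same 3 control libraries. Aspn passed the filter on low counts only through Vcam1KO1, the group where it is high. Its calls are thus a description in the counts of genes here and below. The median log2 fold change of the members was 6.41 in Vcam1KO1, or 5.87 with Aspn at its lower bound, and 2.65 in Vcam1KO2, or 1.52 over the 8 members with Aspn left out, against medians of 0.02 and 0.00 over all genes tested.

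**Figure D1:**
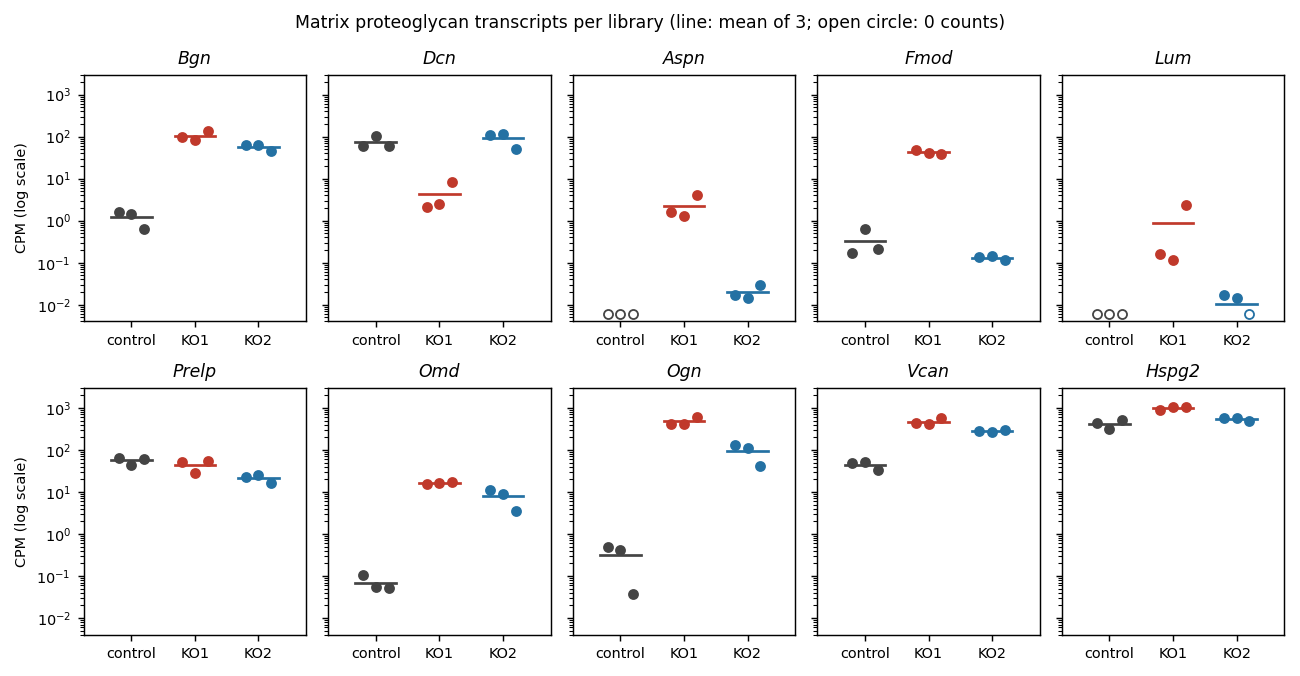
Level of each of the 10 genes in every library, in CPM on a log axis, for control, KO1 (Vcam1KO1) and KO2 (Vcam1KO2), with a point per library in replicate order, a line at the mean of 3 and open circles at the foot of the axis for 0 counts. Bgn, Omd, Ogn and Vcan are high in both clones, Fmod and Aspn in Vcam1KO1, and Dcn is low in Vcam1KO1 alone of the 3 groups.

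Promoters, the 250 bases before the RefSeq start (GRCm38.p6), were at hand for 8 of the 10 genes, all but Dcn and Lum. Those of the neighbours Aspn, Omd and Ogn are shown with those of Bgn and Fmod, since these 5 rose most in Vcam1KO1. Capitals mark matches, on either strand, to 6 motifs, the TATA box TATAAA, the E-box CAGGTG, the AP-1 site TGANTCA, the TEAD site CATTCC, the GC box GGGCGG and the CCAAT box CCAAT.

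Aspn, chr13:49544193-49544442, plus strand: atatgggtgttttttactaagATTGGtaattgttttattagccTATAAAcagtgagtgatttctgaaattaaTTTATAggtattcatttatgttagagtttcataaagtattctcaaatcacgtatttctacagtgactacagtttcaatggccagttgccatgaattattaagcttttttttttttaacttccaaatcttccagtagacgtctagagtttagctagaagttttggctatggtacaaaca
Omd, chr13:49582212-49582461, plus strand: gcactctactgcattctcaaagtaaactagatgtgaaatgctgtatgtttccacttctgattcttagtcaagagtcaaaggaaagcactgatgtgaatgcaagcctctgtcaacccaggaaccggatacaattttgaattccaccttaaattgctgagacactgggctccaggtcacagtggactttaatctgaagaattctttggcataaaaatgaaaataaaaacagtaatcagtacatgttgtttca
Ogn, chr13:49607765-49608014, plus strand: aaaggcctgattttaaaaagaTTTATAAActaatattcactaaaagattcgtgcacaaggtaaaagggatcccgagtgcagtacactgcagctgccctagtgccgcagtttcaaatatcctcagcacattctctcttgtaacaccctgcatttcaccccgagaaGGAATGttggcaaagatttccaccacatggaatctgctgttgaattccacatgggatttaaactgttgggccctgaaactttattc
Bgn, chrX:73483351-73483600, plus strand: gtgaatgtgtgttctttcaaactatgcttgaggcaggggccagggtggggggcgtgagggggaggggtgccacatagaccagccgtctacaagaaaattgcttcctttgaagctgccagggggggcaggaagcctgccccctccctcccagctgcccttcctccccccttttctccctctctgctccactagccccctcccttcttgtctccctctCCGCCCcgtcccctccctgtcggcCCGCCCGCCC
Fmod, chr1:134037004-134037253, plus strand: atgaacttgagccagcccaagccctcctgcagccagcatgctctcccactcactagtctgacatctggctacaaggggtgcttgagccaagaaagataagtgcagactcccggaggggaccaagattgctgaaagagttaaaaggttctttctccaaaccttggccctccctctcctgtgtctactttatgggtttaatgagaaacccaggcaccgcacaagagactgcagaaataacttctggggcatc

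The 5 sequences share no motif of the 6. Aspn holds a CCAAT box at -229, read on the other strand, and TATA boxes at -207 and -178 from the start. Ogn holds a palindromic pair of overlapping TATA boxes at -229 and -227 and a TEAD site at -86. Bgn holds GC boxes at -34, -10 and -6, of which the last 2 overlap, and Omd and Fmod hold none of the 6. Among 32851 promoters of the same length, 12.4% hold the TATA box, 17.2% the E-box, 6.75% the AP-1 site, 12.6% the TEAD site, 32.7% the GC box and 33.8% the CCAAT box. This set leaves out a chromosome on which none of these genes lie. Hspg2, with 5 GC boxes, had 20 CpG dinucleotides, Vcan 10, Bgn 7, Prelp 5, Ogn 4, Fmod and Aspn 2 each and Omd 1, against a median of 6 over the same set of promoters.

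Among class I genes, Bgn and Dcn, 2 closely related proteoglycans that carry chondroitin or dermatan sulphate and bind collagen, followed different courses. Bgn was at 1.59, 1.46 and 0.65 CPM in the control libraries, at 97.9, 82.7 and 136 CPM in Vcam1KO1 and at 61.6, 63.7 and 45.0 CPM in Vcam1KO2, so every clone library lay far above every control library. It rose 85.2-fold in Vcam1KO1 (log2 fold change 6.41, SE 0.38, adjusted p = 9.3e-07) and 45.9-fold in Vcam1KO2 (5.52, SE 0.36, adjusted p = 2.3e-06). The clones differed by 1.86-fold (adjusted p = 0.038), a call that was lost when any library of either clone other than replicate 2 of Vcam1KO1 was left out (adjusted p 0.063 to 0.12).

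Dcn was the only one of these genes to fall in Vcam1KO1. It was at 60.2, 105 and 58.3 CPM in control, at 2.16, 2.51 and 8.35 CPM in Vcam1KO1 and at 111, 113 and 51.7 CPM in Vcam1KO2. The Vcam1KO1 libraries lay below all others, whereas the control and Vcam1KO2 libraries overlapped. Dcn was 17.3-fold lower in Vcam1KO1 than in control (log2 fold change -4.11, SE 0.58, adjusted p = 2.2e-04) and 21.3-fold lower than in Vcam1KO2 (-4.41, adjusted p = 4.8e-04). Without the separate replicate 3 of Vcam1KO1 these values were -4.99 and -5.29. In Vcam1KO2 the change was 0.30 (95% interval -0.83 to 1.44, adjusted p = 0.65).

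Aspn, whose product competes with decorin for collagen, had 0 counts in all 3 control libraries, 108, 121 and 249 counts in Vcam1KO1 and 1, 1 and 2 counts in Vcam1KO2. The Vcam1KO1 libraries were at 1.62, 1.26 and 3.97 CPM, a mean of 2.28 ± 1.47 CPM (SD, n = 3). Aspn passed the filter on low counts only through Vcam1KO1, the group where it is high, so its p values and calls are given as a description. With 3 counts per library taken as the floor, Aspn was at least 58.5-fold higher in Vcam1KO1 than in control (adjusted p = 5.9e-05), and at least 36.9-fold without replicate 3. The ratio of summed counts between the clones, 478 against 4, was 104 (95% exact Poisson interval 40.5 to 385, for counting error only), and 69.2 (26.7 to 256) from 229 against 4 counts without replicate 3. The clones differed by the test too (adjusted p = 4.1e-04, and 2.0e-04 without replicate 3). In Vcam1KO2 against control both groups were at or under the floor, so no fold is given, and the test did not pass (adjusted p = 0.074), although it did without replicate 3 of Vcam1KO1 (adjusted p = 0.020).

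Of the class II genes, Fmod separated the clones most. Fibromodulin carries keratan sulphate and binds collagen I and lysyl oxidase. Fmod was at 0.17, 0.63 and 0.22 CPM in control, at 49.2, 41.6 and 39.6 CPM in Vcam1KO1 and at 0.14, 0.14 and 0.12 CPM in Vcam1KO2. It rose 139-fold in Vcam1KO1 against control (log2 fold change 7.12, SE 0.45, adjusted p = 1.4e-06; 7.78 without control replicate 2) and was 325-fold higher there than in Vcam1KO2 (8.34, SE 0.49, adjusted p = 5.4e-06). All 3 Vcam1KO2 libraries lay below the control libraries, but the difference of -1.22 (95% interval -2.34 to -0.11) did not pass after adjustment (adjusted p = 0.064), and passed when control replicate 1 was left out (-1.61, adjusted p = 0.017).

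Lum encodes lumican, another keratan sulphate proteoglycan of collagen matrix. It had 0 counts in all control libraries, 11, 11 and 147 counts in Vcam1KO1 and 1, 1 and 0 counts in Vcam1KO2, so its level in Vcam1KO1 was carried by replicate 3, at 2.35 CPM against 0.17 and 0.12 CPM in the other two. Against the floor of 3 counts it was at least 22.4-fold higher in Vcam1KO1 than in control, but at least 3.58-fold without replicate 3. The ratio of summed counts between the clones was 73.8 (95% exact Poisson interval 20.1 to 614) and without replicate 3 it was 13.3 (3.27 to 117). When no filter was applied, Lum passed the test in Vcam1KO1 against control (adjusted p = 3.2e-04) and against Vcam1KO2 (adjusted p = 0.0023).

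Prelp rose in neither clone. Prolargin anchors basement membranes to collagen and carries few or no sugar chains. It was at 63.5, 44.4 and 61.6 CPM in control, at 52.3, 27.7 and 54.1 CPM in Vcam1KO1 and at 23.3, 24.8 and 16.4 CPM in Vcam1KO2. The Vcam1KO2 libraries lay below all others, and the Vcam1KO1 libraries overlapped control. Prelp fell 2.63-fold in Vcam1KO2 (log2 fold change -1.40, SE 0.27, adjusted p = 0.0020), whereas in Vcam1KO1 the change was -0.34 (95% interval -0.94 to 0.26, adjusted p = 0.30). The clones differed by 2.08-fold (adjusted p = 0.013).

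Omd, a keratan sulphate proteoglycan best known from bone, was nearly silent in control, at 0.10, 0.06 and 0.05 CPM. It was at 15.7, 16.0 and 17.1 CPM in Vcam1KO1 and at 11.3, 8.78 and 3.58 CPM in Vcam1KO2, and it rose 213-fold (log2 fold change 7.73, SE 0.52, adjusted p = 2.1e-06) and 103-fold (6.69, SE 0.51, adjusted p = 5.8e-06), respectively. The clones differed by 2.06-fold (adjusted p = 0.046), and this call was lost when any library but replicate 1 or 3 of Vcam1KO2 was left out (adjusted p 0.053 to 0.091).

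Ogn, the class III gene, showed the largest fitted rise of the genes detected in control. Osteoglycin, also called mimecan, is made by mesenchymal tissues and binds collagen. Ogn was at 0.50, 0.42 and 0.04 CPM in control, at 418, 420 and 618 CPM in Vcam1KO1 and at 128, 113 and 42.6 CPM in Vcam1KO2. No library of one group reached into the range of another. The rise was 1470-fold in Vcam1KO1 (log2 fold change 10.52, SE 0.79, adjusted p = 4.1e-06) and 286-fold in Vcam1KO2 (8.16, SE 0.73, adjusted p = 1.6e-05). Without control replicate 1 these log2 values were 11.17 and 8.81. Ogn was 5.13-fold higher in Vcam1KO1 than in Vcam1KO2 (adjusted p = 0.0075).

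Vcan and Hspg2, the large proteoglycans, were expressed in all 9 libraries. Vcan was at 47.9, 51.7 and 32.8 CPM in control, at 440, 405 and 575 CPM in Vcam1KO1 and at 276, 262 and 295 CPM in Vcam1KO2. It rose 10.7-fold in Vcam1KO1 (log2 fold change 3.42, SE 0.21, adjusted p = 1.2e-06) and 6.29-fold in Vcam1KO2 (2.65, SE 0.20, adjusted p = 5.8e-06), and it was 1.71-fold higher in Vcam1KO1 than in Vcam1KO2 (adjusted p = 0.011). The 3 groups did not overlap. The counts are summed per gene and do not separate the splice forms of versican, which differ in how many chondroitin sulphate chains they hold.

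Hspg2 was at 434, 310 and 502 CPM in control, at 893, 1029 and 1039 CPM in Vcam1KO1 and at 580, 560 and 488 CPM in Vcam1KO2. It rose 2.38-fold in Vcam1KO1 (log2 fold change 1.25, SE 0.18, adjusted p = 2.6e-04). In Vcam1KO2, where 1 library lay within the control range, the change was 0.39 (95% interval -0.01 to 0.78, adjusted p = 0.095), and it passed without control replicate 3 (0.55, adjusted p = 0.032). The clones differed by 1.82-fold (adjusted p = 0.0048). Agrn and Col18a1, which encode the other basement membrane heparan sulphate proteoglycans and of which Col18a1 was picked after its values were seen, did not follow Hspg2. Agrn was at 711 ± 205 CPM in control, 351 ± 165 CPM in Vcam1KO1 and 148 ± 36.9 CPM in Vcam1KO2 (SD, n = 3 each) and fell in both clones (log2 fold changes -1.02, adjusted p = 0.026, and -2.27, adjusted p = 5.2e-04). The Vcam1KO1 libraries, at 256, 255 and 542 CPM, overlapped the control libraries, at 691, 516 and 924 CPM. Col18a1 passed in neither clone (-0.10 and 0.28, adjusted p 0.58 and 0.13).

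**Figure D2:**
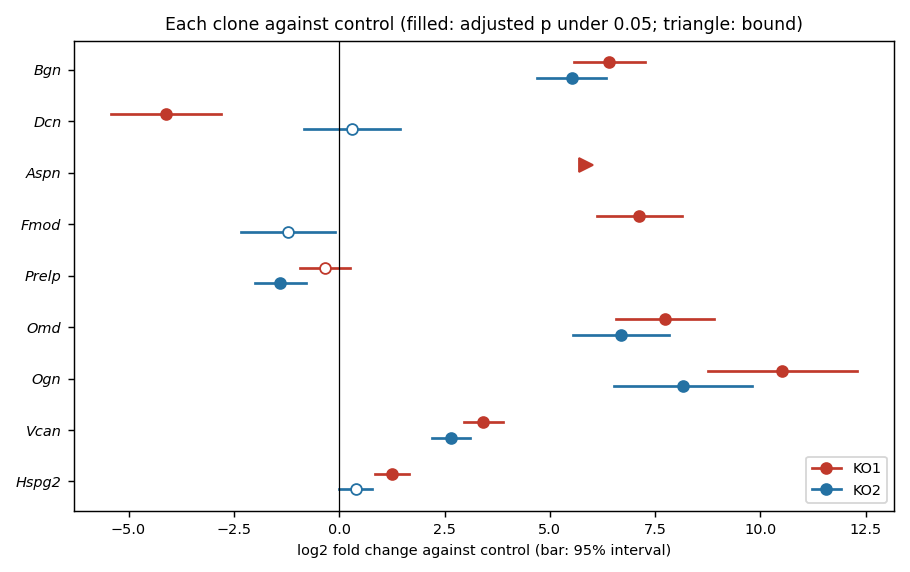
Log2 fold change of each tested gene in KO1 (Vcam1KO1) and KO2 (Vcam1KO2) against the same 3 control libraries, with 95% intervals, filled where the adjusted p was under 0.05. The triangle is the lower bound of Aspn in Vcam1KO1 (5.87), and no fold is drawn for Aspn in Vcam1KO2. Bgn, Omd, Ogn and Vcan lie right of 0 in both clones, while Dcn lies left of 0 in Vcam1KO1 and near 0 in Vcam1KO2.

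Between the clones all 9 tested genes differed, 8 of them higher in Vcam1KO1 and Dcn lower, where 38.7% of all genes tested were called, 20.2% higher in Vcam1KO1 and 18.5% lower. The libraries of the clones overlapped for none of the 9, and did not overlap for 54.9% of all genes tested. The calls for Bgn and Omd were close to the threshold and were lost when any of several libraries was left out, as given above. When the study's grouping of both clones as 1 set of 6 libraries was used, 6 of the 9 genes rose and none fell, where 43.0% of all genes were called, 21.7% higher and 21.2% lower. The libraries did not overlap for 5 of the 9 genes (Aspn, Bgn, Ogn, Omd and Vcan), against 44.2% of all genes tested. For Aspn the Vcam1KO2 libraries held only 1, 1 and 2 counts. Bgn (log2 fold change 6.04, adjusted p = 2.1e-05), Ogn (9.80, adjusted p = 4.2e-04), Omd (7.34, adjusted p = 3.5e-05) and Vcan (3.09, adjusted p = 7.4e-05) passed by a wide margin. Aspn (adjusted p = 0.048) and Hspg2 (0.88, adjusted p = 0.040) passed narrowly, and both calls were lost when any control or any Vcam1KO1 library was left out (adjusted p 0.062 to 0.12 for Aspn and 0.057 to 0.16 for Hspg2). Fmod (6.07, adjusted p = 0.068), Dcn (-0.63, adjusted p = 0.68) and Prelp (-0.77, adjusted p = 0.12) did not pass in this comparison, in which differences between the clones count as spread. Fmod passed when any Vcam1KO2 library was left out (adjusted p 0.042 to 0.045) and Prelp without replicate 3 of Vcam1KO1 (adjusted p = 0.043).

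To compare genes with each other, CPM was divided by the length of the longest coding transcript in kilobases. On this scale control cells expressed mainly Dcn, at 42.4 ± 15.1 CPM per kb, Hspg2 at 29.3 ± 6.86 and Prelp at 15.6 ± 2.91 (SD, n = 3), which were 46.3%, 31.9% and 17.1% of the sum over the 10 genes. Dcn and Hspg2 did not differ beyond their spread. In Vcam1KO1 Ogn led at 189 ± 44.7 CPM per kb, 50.1% of the sum, followed by Hspg2 at 69.6 ± 5.72, Bgn at 43.6 ± 11.3 and Vcan at 38.1 ± 7.21, of which the last 2 overlapped within their spread. Dcn made up 0.65% there. In Vcam1KO2 the leading genes were Dcn at 52.3 ± 19.9, Hspg2 at 38.3 ± 3.44, Ogn at 36.9 ± 17.8, Bgn at 23.5 ± 4.23 and Vcan at 22.3 ± 1.32 CPM per kb, and each was within the spread of the next. The summed level per length was 91.7 ± 6.54 in control, 378 ± 70.5 in Vcam1KO1 and 183 ± 46.8 in Vcam1KO2. The place of Vcan depends on the transcript that is used. With a length of 2273 bases, its shortest coding transcript above 1 kb, in place of 12427 bases, Vcan would stand first in both clones and at place 3 in control.

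**Figure D3:**
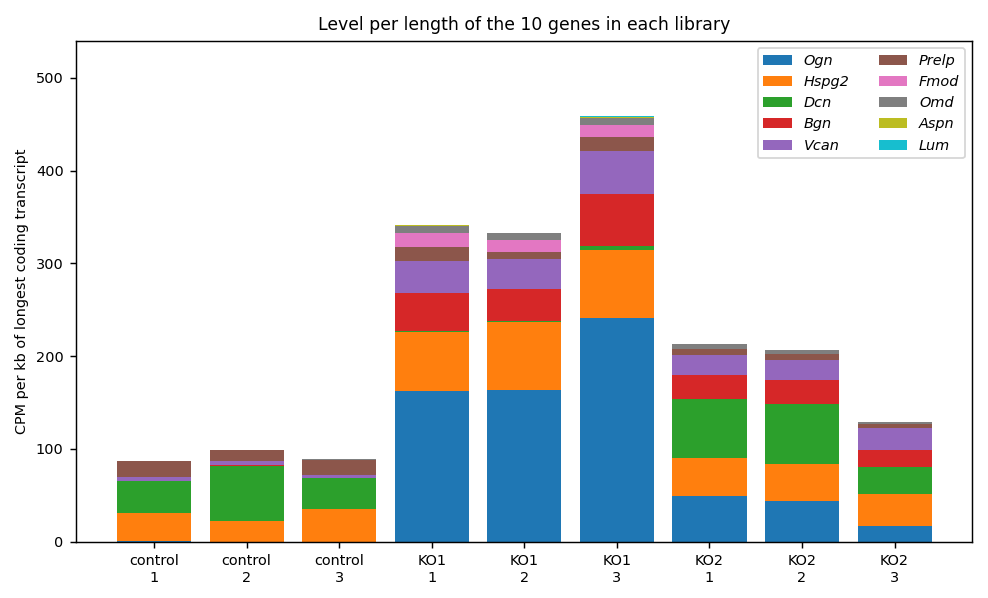
Level per length of the 10 genes in each library, in CPM per kb of the longest coding transcript, stacked by gene on a linear axis from 0. The sums lie at 87.2 to 99.2 in control, 333 to 459 in Vcam1KO1 and 129 to 213 in Vcam1KO2, with Dcn and Hspg2 filling most of the control bars and Ogn the largest part of the Vcam1KO1 bars.

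Several of these genes lie next to each other in the genome (GRCm38, GENCODE vM21). On chromosome 13, Aspn (chr13:49544443-49567565), Omd (chr13:49582462-49592822) and Ogn (chr13:49608046-49624501) follow each other on the plus strand after Ecm2, which encodes a related leucine-rich matrix protein, with gaps of 11.7, 14.9 and 15.2 kb. In Vcam1KO1 all 4 genes rose, Ecm2 by 4.13 on the log2 scale (adjusted p = 1.2e-04), whereas in Vcam1KO2 Omd and Ogn rose and the change of Ecm2 was -0.64 (adjusted p = 0.35). Nol8, which follows 28.6 kb after Ogn, had changes of -0.58 (adjusted p = 0.034) and -0.10 (adjusted p = 0.72), and its call in Vcam1KO1 is close to the threshold. Aspn, Omd and Ogn lie inside the gene Cenpp on the other strand, and the authors counted reads by strand. Cenpp did not pass the test in either clone (0.66 and 1.30, adjusted p 0.31 and 0.068).

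Neighbours did not always move together. On chromosome 1 Prelp (chr1:133910304-133921414, minus strand) and Fmod (chr1:134037254-134048277, plus strand) are 115.8 kb apart with no protein-coding gene between them, and Fmod rose in Vcam1KO1 where Prelp did not pass. Optc, a further small leucine-rich gene 2.3 kb from Prelp, fell like Prelp in Vcam1KO2 (-3.71, adjusted p = 1.3e-04) and did not pass in Vcam1KO1 (-0.59, adjusted p = 0.19). On chromosome 10 Dcn (chr10:97479609-97518143) is followed by Lum (chr10:97565128-97572703), Kera and Epyc, of which only Dcn had enough counts to be tested. Bgn (chrX:73483602-73495933) lies 7.2 kb from Atp2b3, which rose in both clones (6.31 and 4.56, adjusted p 1.1e-04 and 9.5e-04), and Vcan (chr13:89655312-89742509, minus strand) lies 43.7 kb from Hapln1, the gene of a link protein that joins versican to hyaluronan. Hapln1 rose in Vcam1KO1 (3.55, adjusted p = 0.0064) from 0.04 ± 0.03 to 0.42 ± 0.20 CPM (SD, n = 3). Hspg2 (chr4:137468769-137570630) has 2 neighbours that were not tested. Of 12 protein-coding neighbours that were not members themselves, 9 were tested. In Vcam1KO1 8 of them were called, where 59.9% of all genes were, but 4 without control replicate 1 and 5 without replicate 2 of Vcam1KO2. In Vcam1KO2 5 of the 9 were called, where 51.4% of all genes were, and 4 to 5 with 1 library left out.

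**Figure D4:**
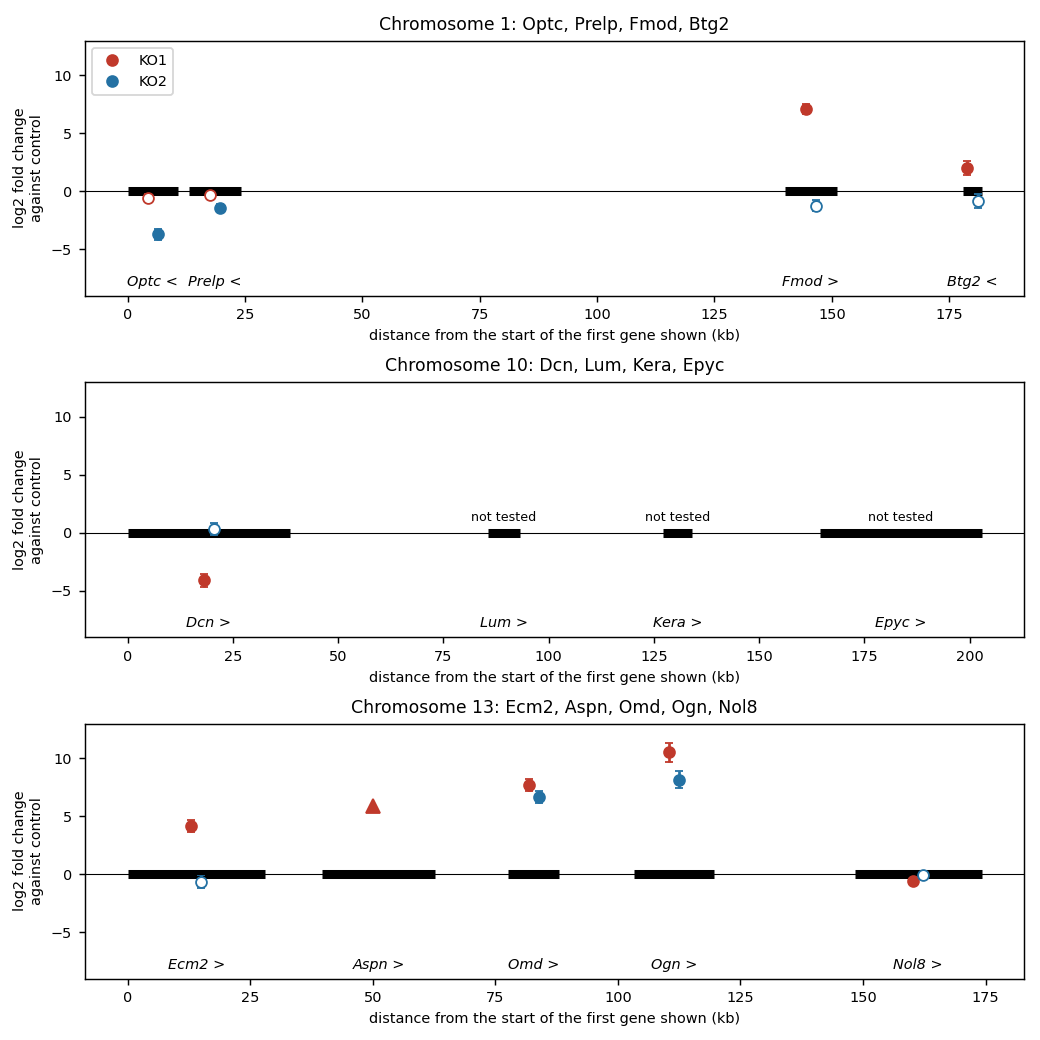
Log2 fold change against control, with its standard error, at the place of each gene in 3 runs of neighbouring genes, for KO1 (Vcam1KO1) and KO2 (Vcam1KO2), filled where the adjusted p was under 0.05. The horizontal axis is distance in kb from the start of the first gene, black bars are genes, > and < give the strand, and the triangle is the lower bound of Aspn. Ecm2, Aspn, Omd and Ogn are raised side by side in Vcam1KO1, and Fmod differs from Prelp in the same run.

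The sugar chains of these proteins are built by shared enzymes, and genes of that pathway were counted by role, to be read against the shares of all tested genes that rose (29.9% and 25.3%) or fell (30.0% and 26.1%) in Vcam1KO1 and Vcam1KO2. The enzymes that extend and sulphate chondroitin and dermatan sulphate, the chains of Bgn, Dcn and Vcan, were mostly higher. Of 16, all were tested, 11 rose and 1 fell in Vcam1KO1, and 12 rose and 1 fell in Vcam1KO2, with median log2 fold changes of 1.72 and 1.69. Chst11, which sulphates chondroitin at the 4 position, rose from 4.20 ± 1.1 to 85.4 ± 28.3 CPM in Vcam1KO1 and 34.2 ± 0.95 CPM in Vcam1KO2 (SD, n = 3; log2 fold changes 4.35 and 3.03). Chst3, which sulphates the 6 position, rose from 0.87 ± 0.26 to 12.9 ± 3.6 and 7.97 ± 0.66 CPM (3.90 and 3.21). Dse, the epimerase that turns chondroitin into dermatan sulphate and was picked after its values were seen, rose by 2.07 and 1.96, and the gene that fell was Chst13 (-5.11 and -4.68), which also sulphates chondroitin.

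Enzymes of the linkage region, on which chondroitin, dermatan and heparan sulphate chains start, were mixed. Of 7 tested, 3 rose and 2 fell in Vcam1KO1 and 4 rose and none fell in Vcam1KO2. Xylt1, the xylosyltransferase that adds the first sugar to the protein, rose from 1.80 ± 0.83 to 70.3 ± 29.6 and 20.2 ± 1.1 CPM (log2 fold changes 5.28 and 3.48), and Pxylp1, a xylose phosphatase, rose by 1.97 and 1.98. Of 20 tested heparan sulphate genes, whose chains perlecan carries, 11 rose and 7 fell in Vcam1KO1 and 12 rose and 6 fell in Vcam1KO2. Sulf1, which removes 6-O-sulphate groups outside the cell, rose (4.09 and 5.26), and Extl1, a glycosyltransferase of the exostosin family, fell (-5.25 and -3.65).

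Genes of keratan sulphate, the chain of Fmod, Lum and Omd, were mostly lower. Of 7 tested, 1 rose and 5 fell in Vcam1KO1, and 2 rose and 5 fell in Vcam1KO2. Chst1, a keratan sulphate sulphotransferase, fell from 40.1 ± 7.9 to 0.78 ± 0.46 and 18.0 ± 4.8 CPM (log2 fold changes -5.65 and -1.16, the latter with adjusted p = 0.032), and Chst2, which sulphates N-acetylglucosamine, rose (3.55 and 3.09). Of 6 tested genes that supply sulphate and sugar donors, 1 rose and 2 fell in Vcam1KO1 and 2 rose and 3 fell in Vcam1KO2. The sulphate transporter Slc26a2 (-2.05 and -1.85) and Ugdh (-2.15 and -1.66), which makes UDP-glucuronate, fell in both clones.

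Most proteases that cut versican, small proteoglycans or procollagen, and their enhancers, rose in both clones. Of 9 tested, 7 rose and none fell in Vcam1KO1, and 6 rose and none fell in Vcam1KO2, with medians of 2.69 and 2.60. The versican-cleaving Adamts4 rose from 10.9 ± 1.3 to 155 ± 55.0 and 182 ± 58.6 CPM (3.83 and 4.07), and Pcolce, which speeds procollagen processing, rose from 60.6 ± 20.4 to 1684 ± 325 and 1291 ± 116 CPM (4.80 and 4.41). Bmp1, a protease that also processes biglycan and osteoglycin and was picked after its values were seen, rose by 2.69 and 2.60. Of 13 tested collagen genes whose proteins these proteoglycans bind, 10 rose and 1 fell in Vcam1KO1 and 9 rose and 1 fell in Vcam1KO2. Col1a1 (6.42 and 5.57) and Col12a1 (6.44 and 5.14) rose in both.

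Among 10 tested genes for hyaluronan synthesis, binding and breakdown, 3 rose and 2 fell in Vcam1KO1 and 4 rose and 2 fell in Vcam1KO2. Cemip, which is needed to break down hyaluronan, rose (2.34 and 3.52) and Cd44, its main receptor, fell (-2.57 and -0.72). Of 7 other small leucine-rich proteins tested, 3 rose and 2 fell in Vcam1KO1 and 1 rose and 3 fell in Vcam1KO2, with Podnl1 higher (2.52 and 2.70) and Tsku lower (-0.69 and -0.31, the latter with adjusted p = 0.042) in both. Of 9 other proteoglycans and link proteins tested, 3 rose and 3 fell in Vcam1KO1 and none rose and 3 fell in Vcam1KO2. Hapln4, a link protein, fell in both (-2.30 and -2.24).

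**Figure D5:**
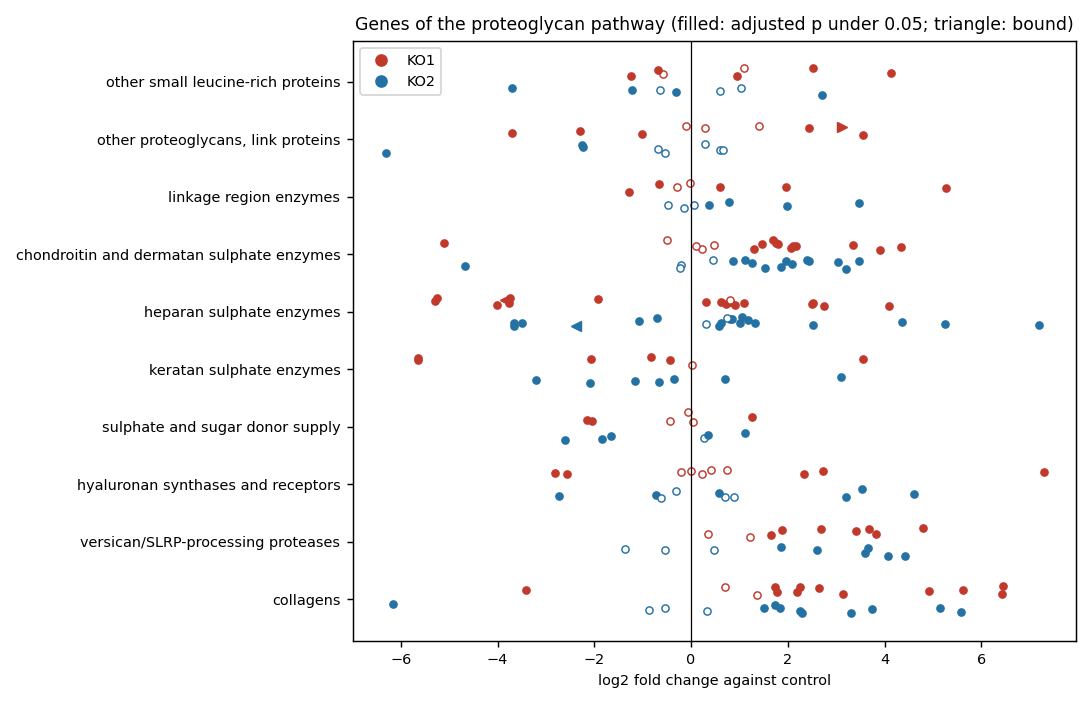
Log2 fold change against control of every tested gene in 10 lists of the proteoglycan pathway, for KO1 (Vcam1KO1) and KO2 (Vcam1KO2), filled where the adjusted p was under 0.05, with triangles for bounds of genes at 0 counts in a group and no point where both groups had 3 counts or fewer in every library. Most chondroitin and dermatan sulphate, protease and collagen points lie right of 0 in both clones, and most keratan sulphate points lie left of it.

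The genes most like each member across the 9 libraries, by Pearson's r of log2 CPM over 13087 genes with a mean of at least 1 CPM, are given as a description, since the 9 libraries form 3 groups and share their control. Bgn was nearest to Abca9 and Sparc (both r = 0.999), Ogn to Col5a2 (0.999) and Capn6 (0.998), Omd to Foxc1 (0.997) and Map9 (0.996), and Vcan to Gm4673 (0.997) and Boc (0.996). Hspg2 was nearest to Kalrn (0.996) and Pcdhb9 (0.990), Fmod to Entpd3 (0.989) and Cped1 (0.988), Prelp to Tsacc (0.990) and Fam32a (0.977), and Dcn to Nkain1 and Ss18 (both 0.986). Within the family Bgn, Omd, Ogn and Vcan had r of 0.980 to 0.993 with each other, while Prelp had r between -0.52 and 0.29 with the other 7.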

How the data were processed

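Stranded, paired-end messenger RNA libraries of Vcam1ctrl, Vcam1KO1 and Vcam1KO2 PPTR cells were sequenced, 3 per group. Per the labels and the methods, the authors counted reads by strand with kallisto 0.46.1 on GRCm38 transcripts, and they deposited estimated counts per gene symbol without normalization. The estimated counts were whole numbers already (0 values were not whole), and 0 columns were left out. Each library was placed by its genotype label. Part of the line's genotype is not reported here.

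The filterByExpr function of edgeR 4.0.16, run in R 4.3.3, kept 17672 of 55276 genes, and TMM factors scaled the libraries. A quasi-likelihood fit in edgeR with 3 groups and all 9 libraries gave the contrasts of each clone with control and of Vcam1KO1 with Vcam1KO2, and a fit with 2 groups gave the pooled contrast. P values were adjusted by Benjamini-Hochberg over all genes tested, with a threshold of 0.05. Counting noise was small at 53415907 to 125223073 counts per library, and the spread between libraries set the precision. Intervals on ratios of counts and the floor of 3 counts cover counting error only. Nothing in the labels says that the libraries of a group came from separate cultures other than by passage, so p values measure the spread between these libraries.

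All 10 members are named. From each pathway list the text names up to 2 genes past the threshold in both clones, with a mean over all libraries of 5 CPM or more and the largest mean absolute change, and any gene with a direct role that was picked after its values were seen is said to be so. The members and lists were chosen with earlier results of these data known. No list was tested as a set.

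Alternatives were limma-voom (limma 3.58.1), the test the study used, DESeq2 1.42.0, upper-quartile scaling, no filter, a filter at a mean of 1 CPM, a prior count of 2 in place of 0.125, fits on 6 libraries, the average of the clones' contrasts and leaving out each library. The script was tested on simulated data. Positions and lengths came from GENCODE vM21 on GRCm38, another release of the annotation that the authors used, and promoters from RefSeq on GRCm38.p6. Pairwise chi-square tests found no 2 libraries of a group within sampling noise of each other.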

Additional observations from a re-analysis of the deposited data

Results flagged for a closer look

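All 9 tested genes differed between the 2 clones under the same contrast with control, by edgeR's quasi-likelihood test of the difference itself, and are given here as log2 differences of Vcam1KO1 minus Vcam1KO2. Fmod (8.34, adjusted p = 5.4e-06) and Dcn (-4.41, adjusted p = 4.8e-04) were the farthest apart of the genes other than Aspn. The fitted difference of Aspn was 6.70 (adjusted p = 4.1e-04), or 5.62 with a prior count of 2 and 6.04 without replicate 3 of Vcam1KO1 (Vcam1KO2 held 4 counts in all). Ogn differed by 2.36 (adjusted p = 0.0075), Prelp by 1.06 (adjusted p = 0.013), Hspg2 by 0.86 (adjusted p = 0.0048) and Vcan by 0.77 (adjusted p = 0.011), and these 4 kept an adjusted p of at most 0.047 without any 1 library. Omd (1.04, adjusted p = 0.046) and Bgn (0.89, adjusted p = 0.038) lost the call without single libraries. Both clones were made with the same guide, each is a single line, and clone and culture cannot be told apart.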

How the results depend on the processing

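The number of members called moved by no more than 1.5 times under any alternative. With 1 library left out it was 8 to 8 in Vcam1KO1, 5 to 6 in Vcam1KO2, 7 to 8 between the clones and 4 to 7 with both clones pooled, and the listed pathway genes called numbered 75 to 83 in Vcam1KO1, 69 to 79 in Vcam1KO2 and 54 to 68 pooled. No member changed direction past the threshold. Of the 572 values of members under alternatives, 237 kept their side of the threshold under other settings, where 7 came past it and 4 were lost, and 293 kept it with a library left out, where 7 came past it and 24 were lost. The library-dependent calls stand beside their results. Under other settings, Fmod in Vcam1KO2 passed with no filter (-1.24, adjusted p = 0.033) and in DESeq2 (-1.30, adjusted p = 0.016), and Aspn in Vcam1KO2 and Omd between the clones changed sides in the fits on 6 libraries (adjusted p 0.0499 and 0.069). In the pooled comparison Hspg2 was lost with upper-quartile scaling (adjusted p = 0.052) and with no filter (0.063), Aspn in limma-voom (0.11), and Fmod passed in DESeq2 (0.0014). The average of the clones' contrasts, which takes the clones' differences out of the spread, also called Dcn (-1.90), Fmod (2.95) and Prelp (-0.87). The cause of the other moves was not tested. The fitted log2 value of Aspn in Vcam1KO1, 10.43, was 6.45 with a prior count of 2 and 8.31 in limma-voom. No paired analysis was possible because the labels give the libraries no shared replicate numbers and link none to a passage. The replicate numbers used here follow the order of the labels and pair nothing. Whether replicate 3 of both clones, the libraries that stood apart within their clones, came from 1 passage was not tested. Depth limits Aspn and Lum in control and Vcam1KO2, where 0 to 2 counts per library allow no level to be given.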
